A study of Homo sapiens with 24 samples.

Results

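*EHF*, *ELF1*, *ELF2*, *ELF3*, *ELF4*, *ETS1*, *ETS2*, and *ELK3* are 8 genes of the ETS family of transcription factors, taken here from the 58051 genes listed for each library. The set was listed by gene symbol with earlier results of these data known. *EHF* was chosen by its loss in HCT116 KO clones, so that its HCT116 values are given as a description with no test. RNA-seq was performed on the human colorectal cancer (CRC) cell lines HT29, HCT116, and SW480. In the KO clones the *CTNNB1* gene, which encodes β-CATENIN, was inactivated on both alleles by CRISPR/Cas9-mediated removal of exon 7. The WT clones had passed through the same editing and single-cell cloning but kept both *CTNNB1* alleles intact. Each line contributed 2 WT clones (11 and 40 for HT29, 4 and 6 for HCT116, 4 and 5 for SW480) and 2 KO clones (28 and 38, 44 and 47, 17 and 21), and every clone entered sequencing rounds A and B once, which gave 24 libraries in 6 groups of 4. All groups of HT29 and SW480 carry inactivating *APC* mutations and both HCT116 groups descend from cells with a gain-of-function *CTNNB1* mutation. The labels name no drug or other agent, and SW480 KO cells were reported to become senescent upon prolonged culture. Every group thus rests on 2 clones.

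ETS factors share a DNA-binding domain that recognises a GGAA core, and neighbouring sequence and partner proteins decide which member acts at a given site. EHF and ELF3 belong to a branch that is largely restricted to epithelia and takes part in epithelial differentiation, including in the intestine, whereas ETS1 and ETS2 are Ras/MAPK-responsive factors that often act with AP-1 at shared elements of protease genes. ELK3 is a ternary complex factor which acts with serum response factor, and ELF1, ELF2, and ELF4 form a broadly expressed branch.

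The promoter windows of the members were taken from RefSeq (GRCh38.p14), which held 15 windows for 7 of the 8 genes but none for *ETS1*. Shown are the 250 bases upstream of a start of *EHF* and of *ETS2*, the genes with the lowest KO levels relative to WT in HCT116 and SW480, respectively, at starts where the window overlapped no annotated exon. On GRCh37, the build of the data, each matched a single place on the plus strand. The *EHF* window lies at chr11:34645554-34645803, inside the annotated gene but outside its exons, and the *ETS2* window at chr21:40176857-40177106 ends 1 base before the annotated gene.
EHF: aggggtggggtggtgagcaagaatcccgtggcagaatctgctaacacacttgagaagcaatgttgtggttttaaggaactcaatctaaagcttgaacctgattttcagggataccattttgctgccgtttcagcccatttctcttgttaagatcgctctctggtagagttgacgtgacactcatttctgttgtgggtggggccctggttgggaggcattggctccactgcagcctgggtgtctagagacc
ETS2: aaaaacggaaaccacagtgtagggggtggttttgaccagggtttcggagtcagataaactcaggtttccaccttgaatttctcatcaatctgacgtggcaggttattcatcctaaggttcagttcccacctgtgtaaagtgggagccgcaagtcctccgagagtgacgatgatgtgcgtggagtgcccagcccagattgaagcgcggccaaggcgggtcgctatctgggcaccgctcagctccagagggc
Capitals would mark matches on either strand to the TCF/LEF letters CTTTGAT or CTTTGAA, to the ETS letters CCGGAAG, or to the AP-1 letters TGANTCA, and neither window held one. Among the 15 windows of the members 0 held the TCF/LEF letters, 0 the ETS letters, and 1 window, of *ELF4*, the AP-1 letters (TGAGTCA), as compared to 5.94%, 8.52%, and 6.57% of all 35116 windows of the same length. These are matches of letters and say nothing about binding.

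Library depth ranged from 22297049 to 29068378 reads, with a median of 27486225.5, so that the members except *EHF* in HCT116 KO cells were counted with at least 43 reads in every library. *CTNNB1* itself, the targeted gene, was at 4.98%, 1.83%, and 2.18% of the WT mean in the KO libraries of HT29, HCT116, and SW480, and no KO library overlapped a WT library. Of the 7 epithelial markers, *CDX2* was close to the floor in HT29 (means of 5.06 in WT and 11.4 in KO), *VIL1* was below the minimum value in HCT116 (3.03 and 1.58) and low in SW480 (17.8 and 8.92), and *CDH1* was low in SW480 (55.6 and 44.0). The markers of leukocytes (2 genes) and endothelium (1 gene) summed to at most 8.56 and 4.28 normalised counts in any library. The 2 fibroblast markers summed to 287 to 437.9 in HCT116 WT and 323 to 370.4 in HCT116 KO libraries, 87.1 to 276 and 115 to 142 in those of SW480, and 13.2 to 23.0 and 26.2 to 85.4 in those of HT29, and their part in the results was not tested. The HT29 KO library of clone 38, round B, stood apart for *EHF*, *ELF2*, and *ELF4*. Without it, the HT29 differences between KO and WT on the log2 scale were −0.55 for *EHF*, −0.02 for *ELF2*, 0.33 for *ELF4*, 0.48 for *ELF1*, 0.63 for *ELF3*, 1.34 for *ETS1*, −0.54 for *ETS2*, and 0.27 for *ELK3*, and none passed (adjusted p from 0.141 to 0.951, limma). All values are normalised counts (reads divided by a size factor of the library), means are given ± SD with n = 4 libraries, and differences are log2(normalised count + 1), KO minus WT, from limma with Benjamini-Hochberg adjustment over all genes tested. In such bulk libraries, fewer cells that express a gene and less of its RNA per cell cannot be told apart.

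*EHF*, an epithelial ETS factor (ENSG00000135373, GRCh37 chr11:34642640-34684835, plus strand), was highest in HT29 and lowest in HCT116 KO cells. In HCT116 WT libraries its normalised count was 1257 and 1366 in clone 4 and 834 and 604 in clone 6. In HCT116 KO libraries it was 7.86 and 5.65 in clone 44 and 2.14 and 1.90 in clone 47. Every KO library was thus far below every WT library, and the KO mean of 4.39 ± 2.88 was 0.432% of the WT mean of 1015 ± 358. The 4 KO libraries held 18 *EHF* reads in all (exact 95% Poisson interval 10.7 to 28.4, which covers counting error only), as opposed to 4379 in the 4 WT libraries. The log2 difference was −7.60 in round A and −7.69 in round B. These are the values for which *EHF* was chosen.

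The other lines were not used in choosing *EHF*. In SW480, *EHF* was at 826 and 694 in WT clone 4, 910.2 and 914 in WT clone 5, 485 and 432 in KO clone 17, and 538 and 573 in KO clone 21. All KO libraries were below all WT libraries, and *EHF* fell by 0.72 on the log2 scale (SE 0.12, adjusted p = 0.000578, limma), from 836 ± 103 to 507 ± 61.6. It also passed when each clone was taken as 1 sample (adjusted p = 0.0309, limma). In HT29, *EHF* was at 8452 and 5286 in WT clone 11, 10502 and 10207 in WT clone 40, 5005 and 7538 in KO clone 28, and 4836 and 1169 in KO clone 38. The groups overlapped, and the difference of −1.12 (95% confidence interval −2.32 to 0.07) did not pass (adjusted p = 0.335, limma). The fall of *EHF* was smaller in SW480 than in HT29, with a difference of 0.40 between the 2 effects (SW480 minus HT29). Its 95% confidence interval of −0.85 to 1.66 spans differences in both directions (adjusted p = 0.714, limma). In order of the mean, *EHF* levels were highest in HT29 WT, followed by HT29 KO, HCT116 WT, SW480 WT, SW480 KO, and HCT116 KO; each of the first 4 groups overlapped with its neighbour in this order, and SW480 KO and HCT116 KO each stood apart.

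**Figure D1:**
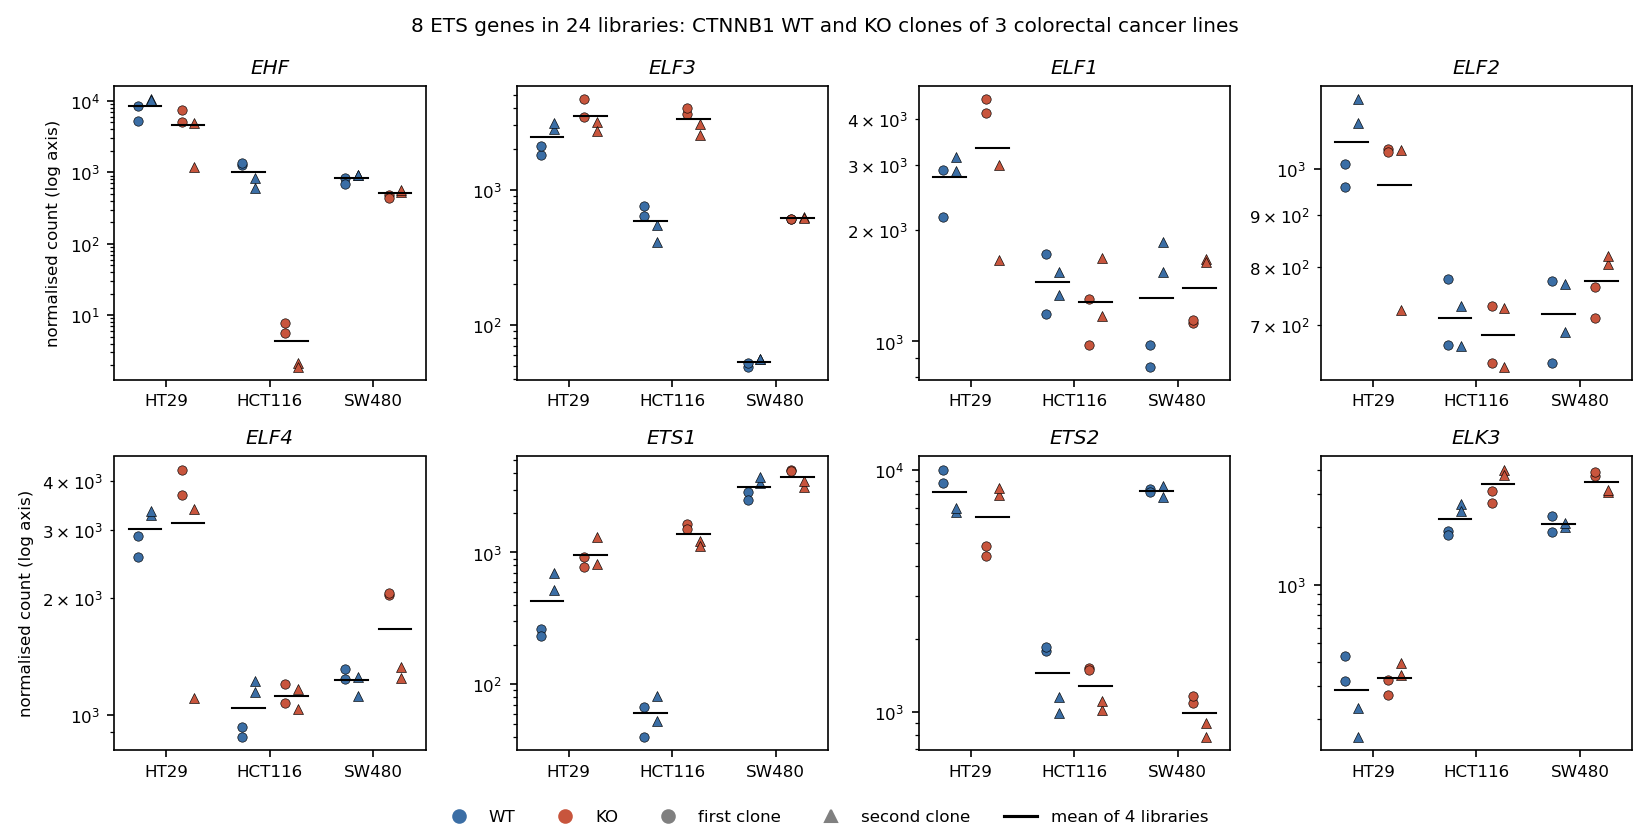
Normalised counts (log axis) of the 8 ETS genes in each of the 24 libraries, for WT (blue) and KO (red) clones of HT29, HCT116, and SW480; circles and triangles are the 2 clones of a group and bars the mean of 4 libraries. *EHF* in HCT116 KO clones lies between 1.90 and 7.86, and *ETS2* in SW480 falls from 8204 to 982 on average.

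*ELF3* (ENSG00000163435, chr1:201977073-201986311, plus strand), the other epithelium-restricted member, rose in both HCT116 and SW480. In HCT116 WT libraries it was at 759.6 and 634 in clone 4 and at 547 and 409 in clone 6. In KO libraries it was at 3635 and 4010.0 in clone 44 and at 2508 and 3034 in clone 47. The groups did not overlap, and the mean rose 5.61-fold, from 587 ± 147 to 3297 ± 662 (log2 difference 2.50, SE 0.20, adjusted p = 1.28e-05, limma). In the same KO libraries *EHF* was nearly undetected. In SW480 WT libraries *ELF3* was at 49.5 and 52.4 in clone 4 and at 56.0 and 56.8 in clone 5. In KO libraries it was at 602 and 610.1 in clone 17 and at 625 and 618 in clone 21. This was an 11.4-fold rise of the mean (log2 difference 3.49, SE 0.10, adjusted p = 3.58e-09, limma), and the 2 clones of each genotype lay close together. In HT29, the WT libraries were at 1807 and 2111 in clone 11 and 2782 and 3095 in clone 40, and the KO libraries at 4627 and 3455 in clone 28 and 3153 and 2714 in clone 38. These overlapped, and the difference of 0.51 (95% confidence interval −0.00 to 1.03) did not pass (adjusted p = 0.309, limma).

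The effect on *ELF3* differed between all 3 pairs of lines: it was larger by 1.99 in HCT116 than in HT29 (adjusted p = 5.29e-05), by 2.98 in SW480 than in HT29 (adjusted p = 4.63e-08), and by 0.99 in SW480 than in HCT116 (adjusted p = 0.0161, all limma). With clone as a random effect the last of these was no longer called (adjusted p = 0.0706), and over all alternatives its adjusted p ranged from 0.00448 to 0.123. In order of the mean, *ELF3* levels overlapped between HT29 KO and HCT116 KO and between HCT116 KO and HT29 WT libraries. HT29 WT stood apart from SW480 KO, the next group. SW480 KO and HCT116 WT overlapped with each other, and SW480 WT stood below all other groups. *ELF3* shares 664 exonic bases with each of the antisense transcript *ELF3-AS1* and the same-strand transcript ENSG00000249007. Reads in these bases are uncertain, for *ELF3-AS1* since the library kit does not mark the strand, and for ENSG00000249007 since the strand is the same. The 2 transcripts themselves reached at most 36.2 and 9.42 normalised counts. Antisense transcripts also share 112 exonic bases with *ETS2* and 209 with *ELK3*, and reached at most 86.9 and 0.934 normalised counts.

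*ETS1* (ENSG00000134954, chr11:128328656-128457453, minus strand) rose in HCT116 cells. In HCT116 WT libraries it was at 67.0 and 39.9 in clone 4 and at 82.2 and 52.4 in clone 6. In KO libraries it was at 1656 and 1498 in clone 44 and at 1232 and 1127 in clone 47. No libraries overlapped, and the mean rose 22.8-fold, from 60.4 ± 18.3 to 1378 ± 242 (log2 difference 4.52, SE 0.22, adjusted p = 3.17e-07, limma). In HT29, *ETS1* was at 263 and 232 in WT clone 11, 695 and 522 in WT clone 40, 779.5 and 929 in KO clone 28, and 1303 and 813 in KO clone 38. All KO libraries were above all WT libraries, but the WT clones differed among themselves (clone 11 minus clone 40, −1.28, adjusted p = 0.0264, limma) and the KO effect of 1.28 (SE 0.37) did not pass (adjusted p = 0.120, limma). Its adjusted p ranged from 0.0233, without WT clone 40, to 0.863, with each clone taken as 1 sample, and it was 0.0479 by DESeq2. In SW480, the line with the highest *ETS1* level, it was at 2858 and 2493 in WT clone 4, 3362 and 3757 in WT clone 5, 4229 and 4172 in KO clone 17, and 3151 and 3486 in KO clone 21. The groups overlapped, and the difference was 0.28 (95% confidence interval −0.03 to 0.58, adjusted p = 0.124, limma), although it passed in 3 of 22 alternatives (lowest adjusted p 0.0262, without WT clone 5). The effect in HCT116 was larger than that in HT29 by 3.25 (adjusted p = 1.16e-05), and that in SW480 was smaller than that in HCT116, with a difference of −4.25 (adjusted p = 6.37e-08, both limma). HCT116 WT clones thus had the lowest *ETS1* level of all groups, whereas the level of HCT116 KO clones overlapped with that of HT29 KO clones.

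*ETS2* (ENSG00000157557, chr21:40177107-40196879, plus strand) fell in SW480. In SW480 WT libraries it was at 8353 and 8146 in clone 4 and at 8562 and 7754 in clone 5. In KO libraries it was at 1088 and 1162 in clone 17 and at 784 and 895 in clone 21. The groups were far apart, and the mean fell from 8204 ± 344 to 982 ± 173, a KO to WT ratio of 0.12 (log2 difference −3.08, SE 0.11, adjusted p = 1.66e-08, limma). In HCT116, *ETS2* was at 1782 and 1859 in WT clone 4, 1153 and 987 in WT clone 6, 1511 and 1484 in KO clone 44, and 1015 and 1108 in KO clone 47. Here the clones of a genotype differed (0.77 between WT clones, adjusted p = 0.0105, and 0.50 between KO clones, adjusted p = 0.0405, limma) whereas the KO effect of −0.15 (95% confidence interval −0.62 to 0.33) did not pass (adjusted p = 0.705, limma). In HT29, *ETS2* was at 10024 and 8879 in WT clone 11, 6709 and 6944 in WT clone 40, 4839 and 4409 in KO clone 28, and 7862 and 8453 in KO clone 38. KO clone 28 was thus lowest and KO clone 38 between the WT clones, with a difference of −0.82 between the KO clones (adjusted p = 0.0144, limma) and a KO effect of −0.39 (95% confidence interval −0.96 to 0.18, adjusted p = 0.470, limma). The effect in SW480 was lower than that in HT29 by a difference of −2.69 (adjusted p = 1.61e-06) and than that in HCT116 by −2.93 (adjusted p = 5.24e-07, both limma). The *ETS2* level of SW480 KO clones overlapped with that of HCT116 KO clones.

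*ELK3* (ENSG00000111145, chr12:96588153-96663602, plus strand) rose in HCT116 and SW480, with a difference of 0.12 between the 2 effects (95% confidence interval −0.50 to 0.74, adjusted p = 0.867, limma). In SW480 it was at 2290.3 and 1895 in WT clone 4, 2014 and 2118 in WT clone 5, 3725 and 3901 in KO clone 17, and 3051 and 3140.2 in KO clone 21. The KO libraries were all above the WT libraries (log2 difference 0.73, SE 0.10, adjusted p = 0.000134, limma). In HCT116 it was at 1925 and 1831 in WT clone 4, 2659 and 2424 in WT clone 6, 3087 and 2672 in KO clone 44, and 3992 and 3747 in KO clone 47. The lowest KO library, at 2672, was just above the highest WT library, at 2659, and the rise of 0.61 (SE 0.16, adjusted p = 0.0250, limma) did not pass with clone as a random effect (adjusted p = 0.0536) or with each clone taken as 1 sample (adjusted p = 0.190). Over all alternatives its adjusted p ranged from 0.000105 to 0.190, and it was also lost without WT clone 4 (0.162), without KO clone 47 (0.122), and without single libraries of these 2 clones (0.0538, 0.0771, and 0.0649). In HT29 *ELK3* was low, at 427, 318, 229, and 162 in WT and 319.8, 266, 394, and 338 in KO libraries. These overlapped, with a difference of 0.29 (95% confidence interval −0.40 to 0.98, adjusted p = 0.657, limma).

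*ELF1* (chr13:41506060-41635576, minus strand), *ELF2* (chr4:139949266-140098372, minus strand), and *ELF4* (chrX:129197930-129244691, minus strand), the broadly expressed branch, did not pass in any line in the main test. *ELF2* varied least: HT29 had means of 1063 ± 95.8 (WT) and 964 ± 159 (KO), HCT116 of 712 ± 52.9 and 684 ± 52.1, and SW480 of 718 ± 63.9 and 775 ± 48.3. Its 3 differences lay between −0.15 and 0.11, with confidence limits from −0.54 to 0.31. *ELF1* differed more between clones than between genotypes in SW480, where it was at 855 and 979.6 in WT clone 4, 1541 and 1863 in WT clone 5, 1119 and 1145 in KO clone 17, and 1674 and 1641 in KO clone 21. The WT clones differed by −0.89 (adjusted p = 1.97e-05) and the KO clones by −0.55 (adjusted p = 0.000476, both limma), whereas the KO effect was 0.14 (95% confidence interval −0.43 to 0.71), or 0.58 without WT clone 5 (adjusted p = 0.0449, limma). *ELF4* in SW480 was at 2036 and 2053 in KO clone 17 but at 1241 and 1323 in KO clone 21, the latter close to the 1115 to 1308 of the WT libraries. The clone difference of 0.67 passed (adjusted p = 1.84e-05) and the KO effect of 0.40 did not (adjusted p = 0.0699, both limma). It passed in 4 of 22 alternatives, with DESeq2 (adjusted p = 0.0369), without KO clone 21 (0.74, adjusted p = 3.64e-05), and without each of its libraries in turn (0.0166 and 0.0385). In HT29 KO clone 38, round B, *ELF4* was at 1102, as opposed to 3398 in round A of the same clone and 3674 and 4276 in clone 28.

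**Figure D2:**
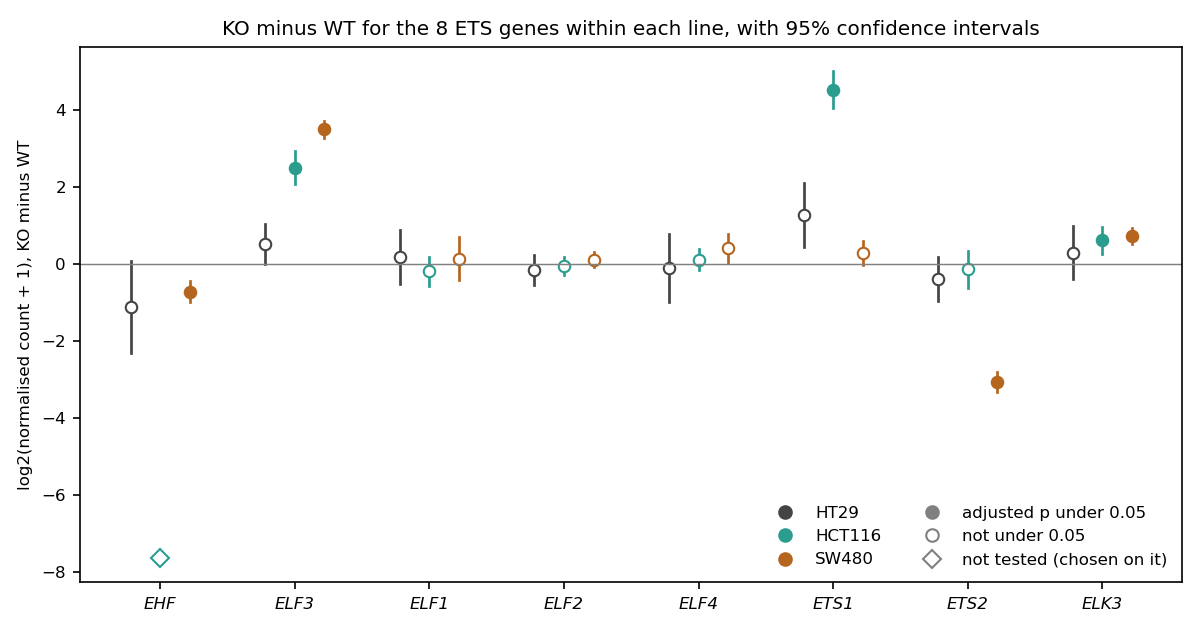
Difference in log2(normalised count + 1) between KO and WT for each member in HT29, HCT116, and SW480; lines are 95% confidence intervals, filled circles passed at an adjusted p under 0.05, and the diamond is *EHF* in HCT116, which was not tested. *ELF3* and *ETS1* reach 2.50 and 4.52 in HCT116, and *ELF3* and *ETS2* reach 3.49 and −3.08 in SW480.

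Counted over the members, 0 of 8 passed in HT29, where 2.08% of all 14921 genes tested were higher and 0.476% lower in KO cells. At an unadjusted p under 0.05, 1 of the 8, *ETS1*, was called in HT29, edgeR called 0, and DESeq2 called 1. In HCT116, 3 of the 7 tested members rose and 0 fell, beside 8.05% higher and 5.93% lower among 15404 genes; edgeR and DESeq2 likewise called 0 lower, as did an unadjusted p under 0.05. In SW480, 2 of 8 rose and 2 fell, beside 26.1% higher and 22.1% lower among 16325 genes, so that the share of members called there was near that of all genes; DESeq2 called 3 higher. The KO and WT libraries did not overlap for 1 of 8 members in HT29, 3 of the 7 tested in HCT116, and 4 of 8 in SW480. Among all genes these shares were 13.0%, 20.5%, and 46.2%. *EHF* was left out of the HCT116 count, since it was chosen by its loss there. The 8 members had median differences of 0.03 in HT29 and 0.21 in SW480, and all genes of 0.03 and −0.00. Among the 7 members tested in HCT116, without *EHF*, the middle value was 0.11 (*ELF4*), beside a median of −0.01 over all genes. Of 22 tests of a difference between lines 7 passed: *ELF3* and *ETS1* between HCT116 and HT29 (background 7.25%), *ELF3* and *ETS2* between SW480 and HT29 (15.8%), and *ELF3*, *ETS1*, and *ETS2* between SW480 and HCT116 (13.2%). These comparisons share libraries in pairs. Since the members were chosen with earlier results of these data known, the counts of members called are descriptions.

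Clones of one genotype also differed in the members, with 11 of 46 tests passed, which measure only the spread between rounds. In HT29 these were *ETS1* between the WT clones (background 9.02%) and *ETS2* between the KO clones (16.0%). In HCT116 *ETS2* passed in both genotypes (WT clones, background 2.61%; KO clones, 7.16%), and *EHF* was not tested. With the replicate block, *ELF3* (adjusted p = 0.0151 for WT and 0.0261 for KO clones, limma) and *ELK3* (0.00532 and 0.00368) also passed in HCT116. *ELF4* did so between the WT clones (0.0174). In SW480 *ELF1* and *ETS1* passed between the WT clones (8.88%) and *ELF1*, *ELF4*, *ELK3*, *ETS1*, and *ETS2* between the KO clones (28.0%). The p-values of the KO effects treat the 2 rounds of a clone as separate replicates, and with clone as a random effect limma called 0 members in HT29 (edgeR 0 and DESeq2 1 without that effect), 2 in HCT116, and 4 in SW480.

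Levels of different genes were compared per kilobase of exon, as a share of the summed per-kilobase counts of all 28 ETS genes listed. This sum itself moved, from 7975 (WT) to 7729 (KO) in HT29, 3834 to 4162 in HCT116, and 8969 to 5879 in SW480, so that a share can rise without a like rise of the level. In HT29 WT cells, *ETS2* (20.7%) and *EHF* (16.1%) were the largest shares, and in KO cells *EHF* took 8.62%. In HCT116 cells the *ELF3* share went from 2.15% in WT to 11.0% in KO, that of *ETS1* from 0.22% to 4.64%, and that of *EHF* from 4.04% to 0.02%, while *ELK3* held 12.4% in WT and 17.6% in KO. In SW480 cells, *ETS2* went from 18.4% to 3.35% and *ELK3* from 5.00% to 12.6% (its level rose 1.66-fold), whereas *EHF* held 1.40% in WT and 1.31% in KO. The 8 members together made up 59.2% and 53.4% of the family sum in HT29 WT and KO, 42.3% and 53.3% in HCT116, and 36.6% and 40.0% in SW480. These shares are descriptions and depend on the exon lengths of the annotation.

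**Figure D3:**
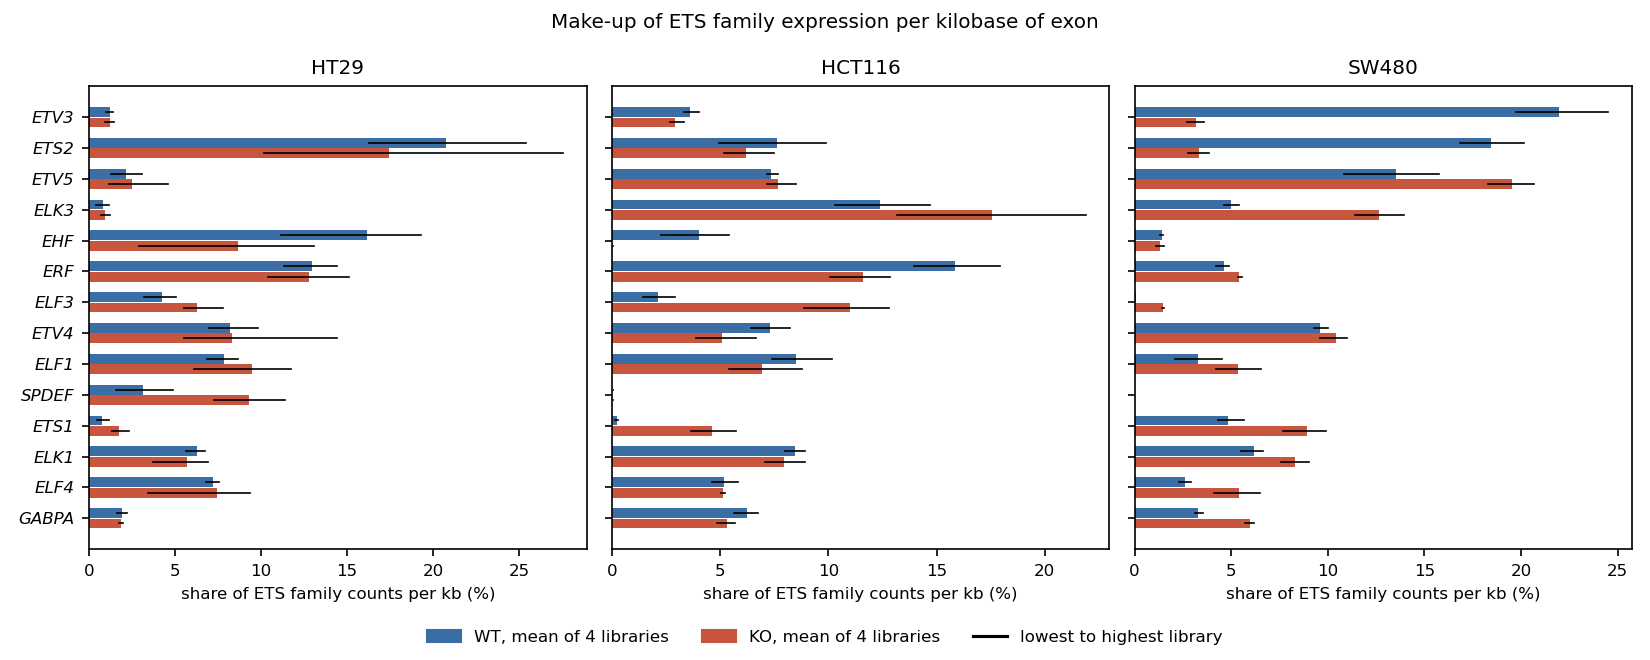
Share of the summed ETS family counts per kilobase of exon (%) held by each gene with at least 4% in some group, WT in blue and KO in red; bars are means of 4 libraries and lines run from the lowest to the highest library. In SW480 the *ETV3* and *ETS2* bars shrink from 21.9% and 18.4% to 3.18% and 3.35%.

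Among the 20 other ETS genes, 0 of 12 tested passed in HT29 (1 at an unadjusted p under 0.05, 0 by edgeR, and 1 by DESeq2). In HCT116 2 rose and 1 fell among 11 tested (1 and 1 with clone as a random effect), and in SW480 2 rose and 3 fell among 11 (1 and 3 with that effect, 0 and 2 with clone means). The shares of all genes called, with which these and the counts below compare, were 2.08% higher and 0.476% lower for HT29, 8.05% higher and 5.93% lower for HCT116, and 26.1% higher and 22.1% lower for SW480. *ETV3*, which encodes an ETS repressor, fell in SW480 from 13188 ± 1327 to 1252 ± 133 (log2 difference −3.40, adjusted p = 2.76e-09, limma), the lowest value among the listed ETS genes tested in that line. *ETV7* rose by 1.22 in both HCT116 and SW480 (adjusted p = 0.0328 and 0.00208, limma) but remained low, with KO means of 47.3 and 57.0. In HCT116, *ETV6*, another ETS repressor, rose from 171 ± 27.3 to 379.9 ± 142 (1.08, adjusted p = 0.0160), and *ETV1* fell from 1408 ± 695 to 479 ± 94.0 (−1.42, adjusted p = 0.0232, both limma). With each clone taken as 1 sample, 0 of the 3 HCT116 calls remained (adjusted p = 0.179, 0.156, and 0.269). *SPDEF*, another epithelium-restricted ETS gene, had means of 486 ± 277 (WT) and 1384 ± 404 (KO) in HT29 without passing (adjusted p = 0.0837, limma).

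Genes of proteases, a protease receptor, and an inhibitor were followed as a list of 8. Several of them, though not all, have promoters known to combine ETS and AP-1 elements. In SW480 5 of 6 tested rose and 0 fell, in HCT116 2 of 4 rose and 0 fell, and in HT29 2 of 5 rose (1 with the replicate block or with clone as a random effect, 0 with clone means) and 0 fell; by edgeR and DESeq2, and at an unadjusted p under 0.05, 0 of them were lower in any line. *PLAU*, which encodes urokinase, rose from 96.6 ± 13.0 to 13197 ± 3943 in SW480 (log2 difference 7.04, adjusted p = 5.61e-09) and from 658 ± 138 to 5926 ± 1755 in HCT116 (3.15, adjusted p = 8.06e-06, both limma). Its receptor gene *PLAUR* rose in all 3 lines, by 1.38 in HT29 (adjusted p = 0.00315), 0.89 in HCT116 (adjusted p = 0.00388), and 2.10 in SW480 (adjusted p = 4.10e-07, all limma), although the HT29 rise did not pass with each clone taken as 1 sample (adjusted p = 0.389). In SW480 the metalloproteinase gene *MMP9* rose by 4.78 (adjusted p = 5.54e-05) and the inhibitor gene *TIMP1* by 1.48 (adjusted p = 0.00244, both limma). *MMP1* in SW480 and *MMP13* in HT29 also passed at KO means of 33.2 and 43.6, and *MMP13* lost its call in edgeR (adjusted p = 0.0528) and with clone as a random effect (0.226).

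Among the 7 AP-1 subunits, *FOSL1*, encoding FRA1, rose in HCT116 from 4129 ± 816 to 13736 ± 2612 (1.74, adjusted p = 6.34e-05) and in SW480 from 2855 ± 419.96 to 7315 ± 1954 (1.33, adjusted p = 0.000247, both limma). *FOS* fell in SW480 from 2104 ± 213 to 270.3 ± 109.9 (−3.05, adjusted p = 8.48e-06, limma). In all, 1 of 7 rose and 0 fell in HT29 (*JUNB*, 1.31, adjusted p = 0.00443, or 0.0576 with clone as a random effect; 0 were lower by edgeR, by DESeq2, or at an unadjusted p under 0.05), 2 rose and 2 fell in HCT116, and 2 rose and 4 fell in SW480. With clone as a random effect, 1 was lower in HCT116 and 2 in SW480. With clone means, 1 was higher in HCT116 and 1 in SW480 but 0 in HT29, and 0 and 1 were lower in HCT116 and SW480. *JUN* rose in both HCT116 (0.84) and SW480 (0.51), and *FOSL2* and *FOSB* were lower in both (*FOSL2* −1.38 and −0.33, *FOSB* −1.40 and −0.51). With clone as a random effect *FOSB* did not pass in either line (adjusted p = 0.0683 and 0.0981), nor did *FOSL2* in SW480 (0.0698).

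Epithelial regulators and junction genes, 13 in the list, moved differently in the lines. In HT29 0 of 13 passed (4 at an unadjusted p under 0.05, 0 by edgeR, and 2 by DESeq2). In HCT116 6 rose and 1 fell (4 and 1 with clone as a random effect, 1 and 1 with clone means). *CDH1*, which encodes E-cadherin, rose from 1481 ± 215 to 3323 ± 382 (1.17, adjusted p = 0.000197), *CLDN7* by 0.65 (adjusted p = 0.00884), and *KLF4* by 0.63 (adjusted p = 0.0402, or 0.120 with clone as a random effect), while the receptor gene *TGFBR2* fell from 1289 ± 257 to 464 ± 113 (−1.49, adjusted p = 0.000695, all limma). In SW480 3 of 9 tested rose and 4 fell. *KLF4* rose from 223 ± 37.7 to 1242 ± 45.9 (2.49, adjusted p = 1.25e-07) and *CLDN7* from 42.8 ± 24.2 to 222 ± 78.2 (2.47, adjusted p = 0.000857), while the splicing regulator gene *ESRP2* fell by 2.13 (adjusted p = 6.39e-06) and the Grainyhead-like factor gene *GRHL1* by 1.47 (adjusted p = 5.86e-05, all limma). *TGFBR2* was higher in SW480 KO cells by 0.56 (adjusted p = 0.000765, limma), whereas it was lower in HCT116 KO cells, and SW480 minus HCT116 was 2.05 (95% confidence interval 1.48 to 2.61, adjusted p = 1.09e-05, limma). Among the epithelial markers, the intestinal factor gene *CDX2* fell in SW480 from 1097 ± 263 to 106 ± 55.8 and was lower in HCT116 KO cells (608 to 437, −0.47, adjusted p = 0.0281, or 0.0945 with clone as a random effect), and *EPCAM* fell in SW480 from 1645 to 818 (−0.99, adjusted p = 0.00388, all limma). The summed marker level in SW480 was 142492 to 197509 over the WT and 152940 to 177129 over the KO libraries, most of it from the keratin genes *KRT8* (87669 in WT and 92914 in KO) and *KRT18* (68862 and 60644), so that the sum does not show the fall of *CDX2* and *EPCAM*; the part of these markers in the results was not tested.

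**Figure D4:**
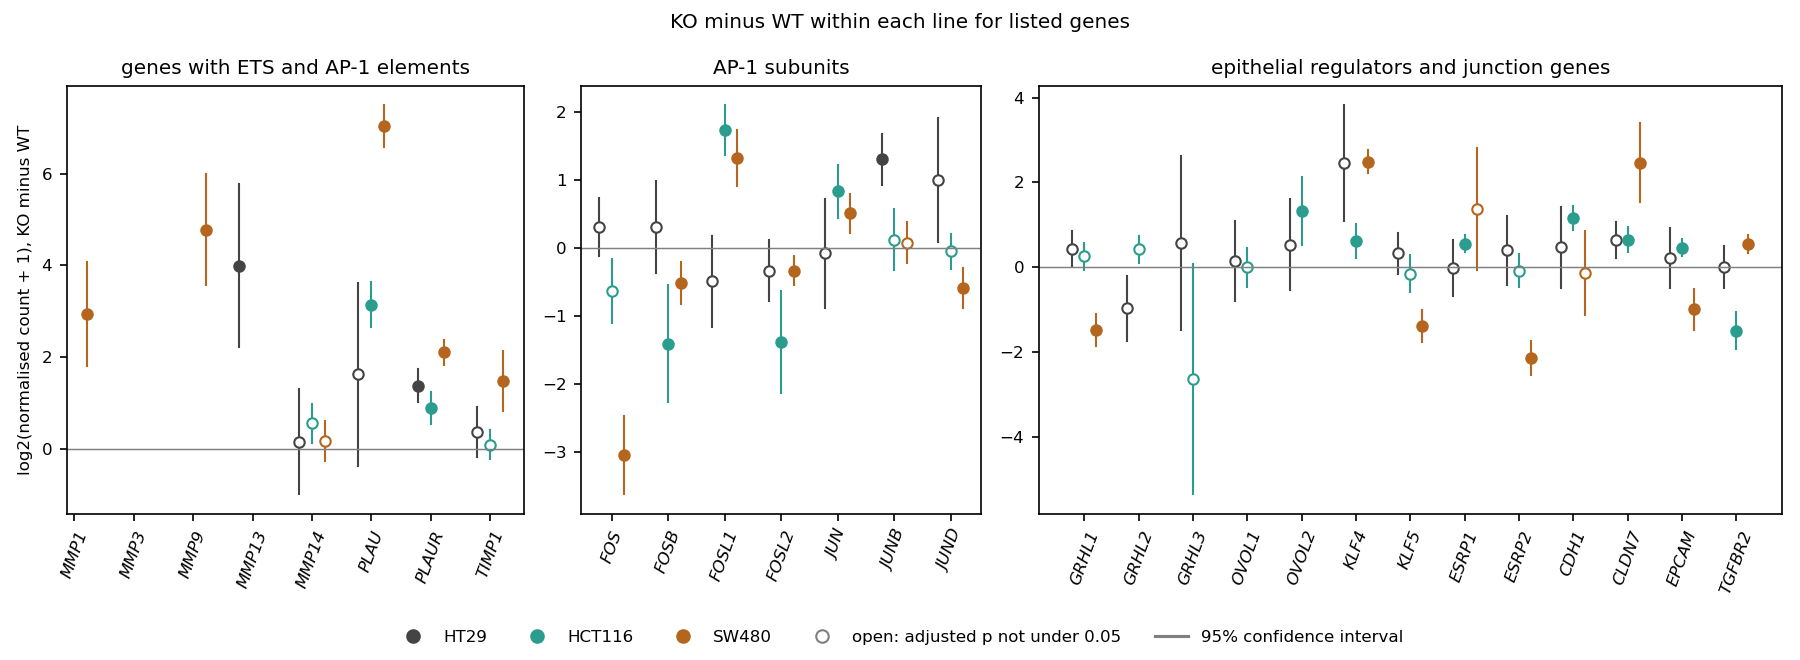
Differences in log2(normalised count + 1), KO minus WT, for the list of protease, receptor, and inhibitor genes, AP-1 subunits, and epithelial genes, with 95% confidence intervals. Filled circles passed at an adjusted p under 0.05 in HT29, HCT116, or SW480. *PLAU* reaches 7.04 in SW480 and 3.15 in HCT116, and *FOS* falls to −3.05 in SW480.

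The protein-coding genes around *EHF* and *ETS1* were examined for changes along the chromosome, taking 5 genes on each side. Around *EHF* in HCT116, 7 of 10 neighbours could be tested, of which only *CD44*, at a distance of 476 kb, rose (1.25, adjusted p = 0.000498, limma) and 0 fell (edgeR 0, DESeq2 1, the replicate block 1, unadjusted p under 0.05, 2). The nearest gene upstream, at 95.9 kb, is the ETS gene *ELF5*, which was below the minimum value in HCT116 (18.0 ± 17.4 in WT and 2.76 ± 2.69 in KO, with overlapping libraries), as were *SLC1A2* and *PAMR1*. The nearest tested genes on each side, *CAT* (149 kb, 1687 ± 465 in WT and 1419 ± 229 in KO) and *APIP* (190 kb, 1029 ± 90.4 and 1012 ± 151), did not pass, with adjusted p = 0.489 and 0.893 (limma). In SW480 3 of 8 neighbours of *EHF* rose and 4 fell, beside 26.1% and 22.1% of all genes. Among those that fell was *SLC1A2*, which went from 701 ± 176 to 2.58 ± 2.47. Around *ETS1*, 0 of 6 and 0 of 5 neighbours passed in HT29 and HCT116, by edgeR and DESeq2 and at an unadjusted p under 0.05 alike. In HCT116 the tested neighbours lay at 378 kb (*ARHGAP32*) and at 2018 to 2181 kb, and the genes nearest to *ETS1*, among them *FLI1*, were below the minimum value. In SW480, where *ETS1* did not pass, 5 of 7 neighbours fell, beside 22.1% of all genes. Among them were *KCNJ5* (2169.98 ± 1171 to 191 ± 33.1) and *ARHGAP32* (2974 ± 252 to 480.4 ± 146).

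**Figure D5:**
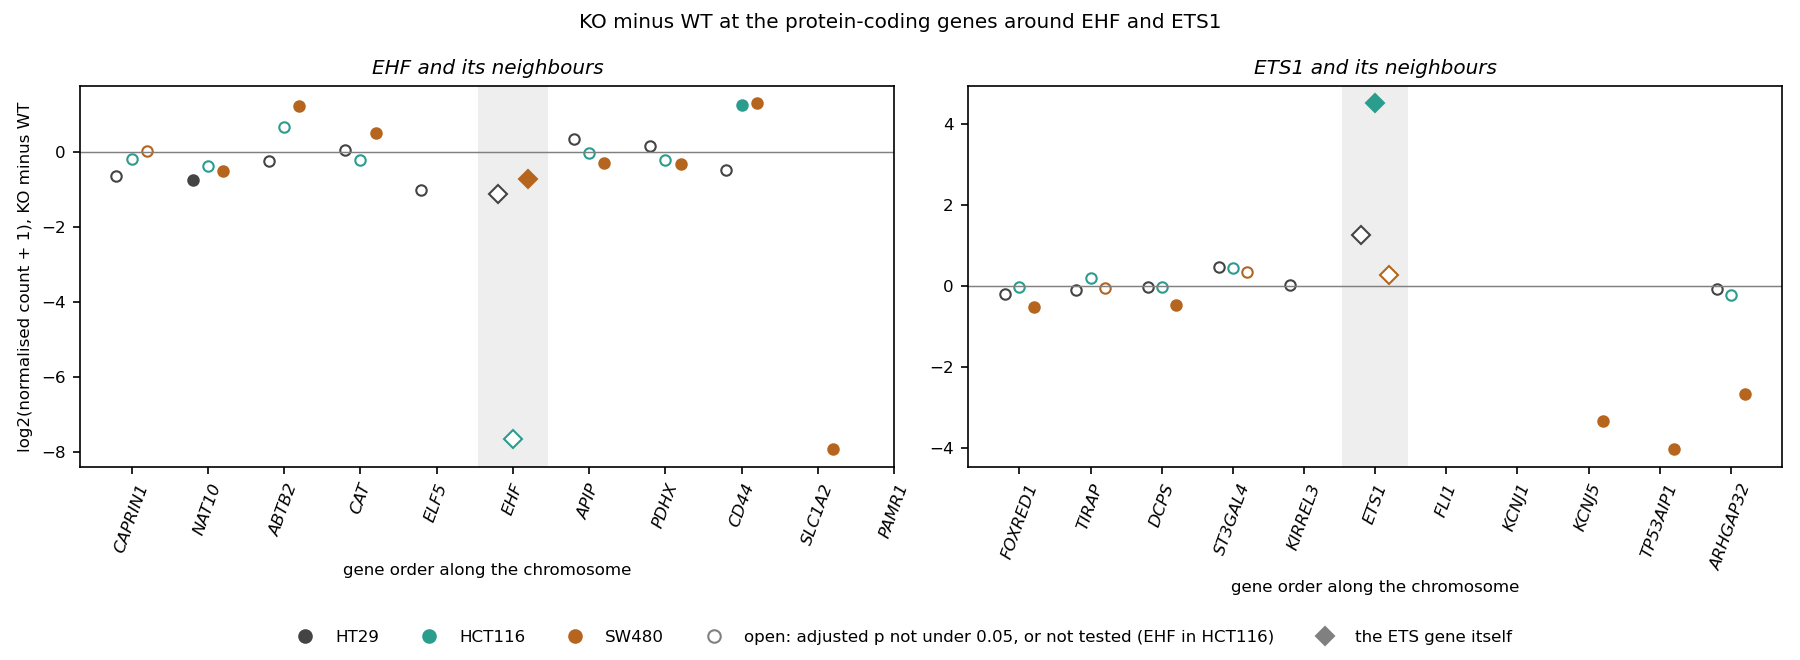
Differences in log2(normalised count + 1), KO minus WT, for the 5 nearest protein-coding genes on each side of *EHF* and *ETS1* (diamonds, shaded), in gene order; filled symbols passed at an adjusted p under 0.05, and genes below the minimum value are blank. *EHF* lies at −7.65 in HCT116 while its tested neighbours lie between −0.37 and 1.25.

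The genes whose profile over the 24 libraries was nearest to a member were found by the root mean square (RMS) difference of centred log2(normalised count + 1) over 18609 genes, given without a test since the lines differ in many genes. For *ELF3* the nearest was *B3GNT3*, with an RMS difference of 0.38 as compared to a median of 2.27 over all genes: its means were 375 in HCT116 WT and 1472 in KO, and 27.6 in SW480 WT and 271 in KO. *MBP* (0.60), *GPRC5A* (0.69), *LIMA1* (0.77), and *TSPAN15* (0.81) followed. For *ETS1* the nearest genes included *ZNF608* (0.84), *PRSS23* (0.97), *TMSB4X* (1.07), and *SLC20A1-DT* (1.11), with a median of 2.19 over all genes. For *EHF*, *SLC40A1* (1.58), ENSG00000279806 (1.63), *RNF43* (1.69), *TNS4* (1.74), and *EXO5* (1.75) were nearest, with a median of 3.58 and an SD of 3.48 for *EHF* itself. The HCT116 KO values for which *EHF* was chosen enter this ranking, so it is no separate evidence on *EHF*. All of these genes had lower means in HCT116 KO than in HCT116 WT libraries. *RNF43*, a feedback inhibitor of WNT signalling, was at 1726 in HCT116 WT and 60.2 in KO libraries and at 2906 and 369 in SW480, but at 3968 and 4148 in HT29.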

How the data were processed

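RNA-seq libraries (TruSeq RNA v2, which does not mark the strand) of 24 samples were aligned by the authors to GRCh37 with STAR 2.7.5b and counted per gene with featureCounts 2.0.1. The values the authors deposited are signal: gene counts divided by a size factor of each library (DESeq2, Galaxy version 2.11.40.6). Tables of the authors' own KO against WT comparisons (means, fold changes, p-values) were not used. Dividing by the step of each library returned whole reads for 100% of values (tolerance 0.001). Symbols were matched for 55604 of 58051 identifiers (GENCODE annotation on GRCh37), and *PECAM1* was not matched.

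Log2(normalised count + 1) of genes with at least 10 in at least 4 libraries was tested with limma 3.58.1 (trend, robust), with 0.05 as the threshold of the adjusted p and, for genes named among the other ETS genes, a log2 change over 1. Alternatives used edgeR 4.0.16, DESeq2 1.42.0, other pseudocounts and filters, clone as a random effect, clone means, and left-out libraries or clones. The limma and edgeR fits were tested on simulated counts that held no clone effect, so that test does not cover the spread between clones. The members and lists were chosen with earlier results of these data known. Examples were the largest changes among called genes with a mean of at least 100, plus some named after their values were seen. Whether rounds pair clones was checked by the correlation of round A minus round B differences: all 6 clone pairs exceeded 0.1 in HCT116 (0.18 to 0.37), as opposed to 2 in HT29 and 1 in SW480. The neighbours of *ELF3* and 1 gene with a profile near that of *ETS1* are not reported here.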

Additional observations from a re-analysis of the deposited data

Results flagged for a closer look

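*ELF2* in the HT29 KO library of clone 38, round B, was at 725 normalised counts, whereas the other 3 HT29 KO libraries lay between 1040.1 and 1047. Its gap to the nearest library was 0.979 of the range of the group, above Dixon's 95% critical value for 4 libraries. This was the only 1 of 48 groups so marked, and chance alone marks about 1 in 20 groups.

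The KO effect differed between lines for 3 genes by the test of the difference itself in limma. The *ELF3* effect was larger in HCT116 than in HT29 by 1.99, in SW480 than in HT29 by 2.98, and in SW480 than in HCT116 by 0.99. The last of these did not pass in 5 of 45 alternatives, among them clone as a random effect (adjusted p = 0.0706, limma). The *ETS1* effect was larger in HCT116 than in HT29 by 3.25, and SW480 minus HCT116 was −4.25. For *ETS2* the difference was −2.69 for SW480 minus HT29 and −2.93 for SW480 minus HCT116.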

How the results depend on the processing

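Each clone stands for its genotype with 1 other clone, the rounds of a clone are treated as replicates, and *EHF* at 2 to 8 reads in HCT116 KO libraries is limited by depth. The calls of *ELF3* and *ETS1* in HCT116 and of *ELF3*, *ETS2*, *ELK3*, and *EHF* in SW480 passed in all 22 alternatives. The number of members passed in HT29 was 0, and 1 with DESeq2 and without WT clone 40, so that left-out libraries or clones gave 0 to 1. With the replicate block, the clone differences passed rose from 11 to 18, and no KO call of a member changed. Of all genes in HT29, 311 were higher and 71 lower, as opposed to 876 and 362 with DESeq2 (81.4% and 70.8% of calls higher), 196 and 38 with at least 10 in every library, 191 and 32 with the block, 102 and 19 with clone as a random effect, and 0 and 0 with clone means. In HCT116, 1240 and 914 became 660 and 407 with clone as a random effect and 273 and 152 with clone means, and in SW480 4256 and 3601 became 2312 and 1505 with clone means. The *EHF* difference in HCT116 was −6.74 with a pseudocount of 5.

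Some values that did not pass in the main test changed sign, and the cause was not tested. Of these, *ELF4* and *ELK3* for SW480 minus HT29 each passed in 1 of 45 alternatives. *ELF4* in HT29 was 0.0109 with DESeq2, 0.0110 with edgeR and RLE, and 0.0200 with TMM, and *ELF1* between the HCT116 WT clones was 0.0360 with DESeq2 and RLE and 0.0480 with TMM. The remaining sign changes arose on leaving out a library or clone, for the KO effect in a line or its difference between lines. For *EHF* it ran from −0.28 to 1.09 (SW480 minus HT29). For *ELF1* it ran from −0.30 to 0.66 (in HT29), −0.31 to 0.58 (in SW480), −0.85 to 0.11 (HCT116 minus HT29), −0.52 to 0.44 (SW480 minus HT29) and −0.12 to 0.77 (SW480 minus HCT116). For *ELF2* it ran from −0.034 to 0.23 (HCT116 minus HT29). For *ELF4* it ran from −0.63 to 0.40 (in HT29), −0.085 to 0.31 (in HCT116), −0.29 to 0.74 (HCT116 minus HT29), −0.0018 to 1.03 (SW480 minus HT29) and −0.045 to 0.63 (SW480 minus HCT116). For *ELK3* it ran from −0.18 to 0.76 (in HT29), −0.15 to 0.79 (HCT116 minus HT29), −0.031 to 0.90 (SW480 minus HT29) and −0.10 to 0.33 (SW480 minus HCT116). For *ETS2* it ran from −0.80 to 0.023 (in HT29), −0.53 to 0.24 (in HCT116) and −0.17 to 0.65 (HCT116 minus HT29).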
